A study of Canis lupus familiaris with 23 samples.

Results

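Dog hair-follicle organoids were compared with the hair follicles that such cultures are derived from. Organoids are small ball-like cultures grown from tissue stem cells, here keratinocytes of the follicle. Of the 23 libraries of the series, 11 entered the comparison, 9 of follicle-derived organoids that had not been moved to differentiation medium and 2 of follicle tissue; they were chosen by their labels alone. All organoids were collected 7 days after culture. Early organoids (passages 0 to 1) with a Tgf-beta inhibitor gave 3 libraries, mid-term organoids (passages 3 to 6) with the inhibitor gave 2, early organoids without the inhibitor gave 2, and mid-term organoids without it gave 2. The tissue group was a mixture of growing (anagen) and resting (telogen) follicles, with 2 libraries. RNA of bulk cells was read by CEL-seq2, which counts transcripts at their 3′ ends. The labels give neither breed, age nor body site, nor whether replicates came from separate dogs or cultures, so the p-values measure the spread between these libraries, which may be technical.

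The hair follicle is a layered epithelial tube. Its basal outer root sheath holds dividing keratinocytes with KRT5 and KRT14, the bulge holds stem cells, and the matrix at its base gives rise to the inner root sheath and the keratinised hair shaft. A dermal papilla and a connective tissue sheath, vessels, nerves, melanocytes, a sebaceous gland and the arrector pili muscle are attached to it and were part of the tissue RNA to unknown extents. Cultured keratinocytes are known for a basal, wound-like state with active glycolysis.

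Depth ranged from 730488 to 4792758 counts in the organoid libraries and was 701066 and 1502935 counts in the tissue libraries. A total of 3 counts summed over a group corresponded to a level of 0.148 in organoids and 1.36 in tissue in CPM, the usual count scaled to a common library total, so a gene seen in organoids only could be missed in tissue. These floors cover counting error only. Along the first principal component (57.8% of the variance of 4959 genes) the organoids lay between −23.9 and −5.3 and the tissue libraries at 79.8 and 78.1. Replicate 1 of the early organoids with inhibitor stood apart on the second component (18.8%), at 50.4 against −31.7 to 17 in the other 10 libraries, and it had a mitochondrial share of 5.35%, against 15.5% to 26.9% in the other organoids and 12.3% and 15.9% in tissue. Group counts and calls of named genes that changed by over 1.5 times, or were gained, without it are given with and without it.

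Of 9893 genes tested with edgeR's quasi-likelihood test and Benjamini-Hochberg adjustment, 2772 (28.0%) were called at an adjusted p under 0.05. In organoids 895 (9.05%) were higher and 1877 (19.0%) were lower than in tissue, and these shares are the background for every group count that follows. Fold changes are log2 values, organoids minus tissue, with their SE, and weight the 4 organoid groups equally. The median over all tested genes was 0.01. It was −0.17 with DESeq2 size factors, which gave 611 genes higher and 2182 lower, and −0.18 with library totals, which gave 592 higher and 2218 lower; group medians move by similar amounts. In 3412 genes (34.5%) the 9 organoid values and the 2 tissue values did not overlap. Without tissue replicate 1 the calls fell to 1649 (311 higher, 1338 lower), and without tissue replicate 2 to 1387 (260 higher, 1127 lower), so the counts rest on both tissue libraries.

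The marker genes of the groups were checked first. KRT14, the keratin of basal keratinocytes, had 17329.7 to 38099.5 CPM in organoids (median 28325), against 4209.8 and 3398 CPM in tissue. SLC2A1, the glucose transporter GLUT1, had 231 to 1659 CPM in organoids (median 847), against 44.9 and 53.8 CPM in tissue. Neither gene overlapped between the groups, and the lowest organoid value of SLC2A1 was in early replicate 1 without inhibitor. DCN, the fibroblast proteoglycan decorin, had 13.1 to 124 CPM in organoids (median 16.9), against 1575 and 1153 CPM in tissue. KRT28, a keratin of the inner root sheath, had 0.742 to 3.39 CPM in organoids (median 1.84), against 330.3 and 332 CPM in tissue, so all 9 organoid libraries lay within a few CPM of each other and the tissue libraries were nearly equal.

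**Figure D1:**
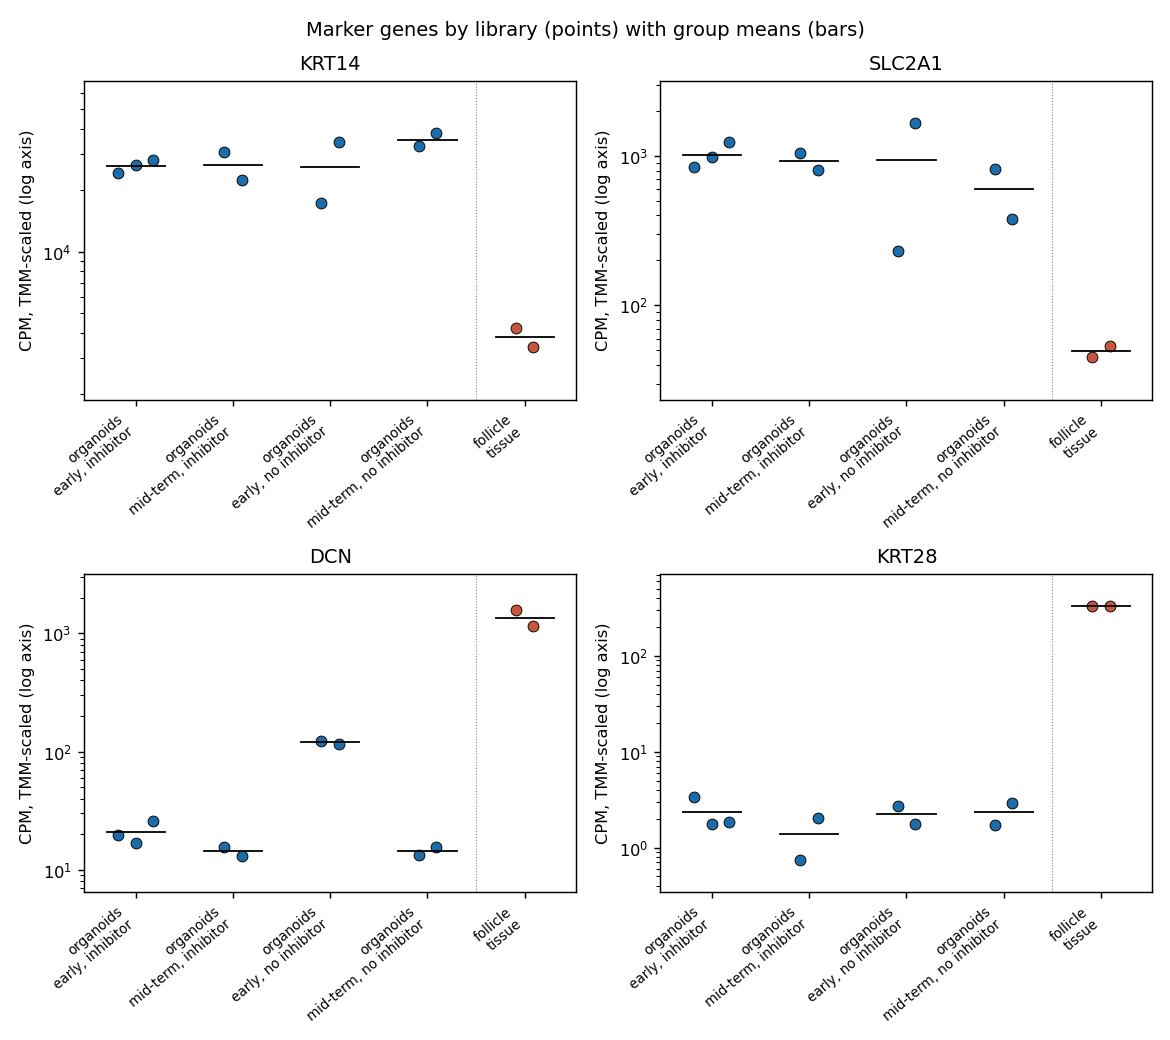
Level of KRT14, SLC2A1, DCN and KRT28 in each library (points; CPM after TMM scaling, log axis) with group means (bars), for the 4 organoid groups (blue) and follicle tissue (red). All 9 organoid libraries lay above both tissue libraries for KRT14 and SLC2A1 and below both for DCN and KRT28.

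Basal keratinocyte genes were higher in organoids. Of 15 tested basal keratin, hemidesmosome and anchoring genes, 8 rose and 1 fell (median 1.41). LAMA3, a chain of laminin-332 that anchors basal cells, had 227 to 732 CPM in organoids (median 592), against 174 and 189 CPM in tissue, a rise of 1.51 ± 0.31 (log2, adjusted p = 0.000825). COL17A1, the transmembrane collagen of hemidesmosomes, rose by 2.80 ± 0.45 (log2, adjusted p = 6.06e-05), and ITGA6, the integrin partner in the same junction, rose by 1.94 ± 0.35 (log2, adjusted p = 0.000205). LAMB3, another laminin-332 chain, rose by 1.41 ± 0.44 (log2, adjusted p = 0.0202), a call lost without tissue replicate 1 (log2 1.03). TP63, the transcription factor of the keratinocyte lineage, had 35.9 to 124 CPM in organoids (median 83.4), against 51.5 and 41.8 CPM in tissue, and its 0.81 ± 0.36 on the log2 scale did not pass (adjusted p = 0.1). Without early inhibitor replicate 1, TP63 was called at 0.90 (log2, adjusted p = 0.032). The bulge and basal keratin KRT15 likewise did not pass, at −0.67 ± 0.68 (log2, adjusted p = 0.5). Beyond the basal layer, KRT6A, a keratin of wounded and hyperproliferative epidermis and of the follicle's companion layer, had 6920.04 to 24708 CPM in organoids (median 12586), against 2154 and 2333 CPM in tissue, with no overlap and a rise of 2.58 ± 0.45 (log2, adjusted p = 0.000133). Its partner KRT16 rose by 1.99 ± 0.66 (log2, adjusted p = 0.0279), a call lost without tissue replicate 1 (log2 2.19) or tissue replicate 2 (log2 1.80). Near-identical copies of KRT6 and of other keratins can share reads, and how the authors' counting split them is not given.

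Genes of the cornified layer were lower or not called. Of 20 tested cornified envelope genes, 10 fell (median −1.51), and 12 fell and 1 rose without early inhibitor replicate 1. The largest falls of this list were TCHH (log2 −6.55) and PADI3 (log2 −6.41), which also count among the hair matrix and shaft genes below. TCHH counts among the inner root sheath genes as well. Some other genes also stand in several lists, so list counts are not independent of each other. TGM3, the transglutaminase that crosslinks hair and envelope proteins, had 0 to 9.42 CPM in organoids (median 0.843), against 35.7 and 71.6 CPM in tissue, a log2 change of −5.27 ± 0.51 (adjusted p = 1.33e-07). FLG, filaggrin, had 10.1 to 192 CPM in organoids (median 95.8), against 482 and 711 CPM in tissue, and fell by 3.26 ± 0.69 (log2, adjusted p = 0.00108). CDSN, corneodesmosin of the upper layers, had 18.5 to 1043 CPM in organoids (median 45.4), against 1085 and 928 CPM in tissue. Its log2 change of −3.88 ± 0.82 (adjusted p = 0.00104), a call lost with the 9 organoid libraries as 1 group (log2 −2.68), was not shared by all libraries, since the 1043 CPM in early inhibitor replicate 1 was the highest organoid value and overlapped tissue. IVL, an envelope precursor, had 245 to 24306 CPM in organoids (median 2019), against 1350.4 and 1382 CPM in tissue, with the top value in the same library, and its 0.45 ± 0.85 on the log2 scale did not pass (adjusted p = 0.742).

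Among suprabasal and mucosal keratins, 1 of 7 rose and 3 fell. The median of 0.07 turned to −0.08 with size factors and −0.11 with library totals. KRT10, the keratin of the spinous layer, had 548 to 13088 CPM in organoids (median 1382), against 547 and 788 CPM in tissue, and the 13088 CPM were in early replicate 1 without inhibitor. The organoid range overlapped tissue, and KRT10 was called at 1.56 ± 0.56 (log2, adjusted p = 0.0411). It was not called without tissue replicate 1 (log2 1.35), tissue replicate 2 (log2 1.84), early no-inhibitor replicate 1 (log2 1.14), mid-term inhibitor replicate 2 (log2 1.46) or mid-term no-inhibitor replicate 1 (log2 1.39). Without either tissue library, and with either other scaling, no gene of the group was called higher. KRT80, a keratin of differentiating epithelia and follicle, fell by 4.34 ± 0.59 (log2, adjusted p = 7.03e-06). KRT4, a mucosal keratin, had 214 counts over the organoid libraries and 0 in tissue, and it did not pass (adjusted p = 0.104). Its mean over the 4 organoid groups, weighted equally, was 23.5 CPM. That is 17.3-fold the level of 3 counts over the tissue group, a ratio of group means and not of summed counts. KRT4 passed with no filter (adjusted p = 0.00102), with DESeq2 (adjusted p = 0.0281) and without mid-term inhibitor replicate 1 (adjusted p = 0.0116).

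Of 19 tested lipid barrier enzymes, 6 fell, 1 rose and 12 did not pass (median −1.45), and the falls numbered 3 without tissue replicate 1 and 2 without replicate 2, and 10 without early inhibitor replicate 1. ACER1, the alkaline ceramidase of the upper epidermis, had 4.64 to 25.1 CPM in organoids (median 9.44), against 214 and 384 CPM in tissue, and fell by 4.97 ± 0.35 (log2, adjusted p = 3.12e-10). CERS4, a ceramide synthase active in follicle and sebaceous gland, had 5.05 to 22.9 CPM in organoids (median 7.83), against 120.2 and 193 CPM in tissue, and fell by 4.05 ± 0.38 (log2, adjusted p = 3.13e-08). ABCA12, the lipid transporter of lamellar granules, had 52.9 to 174 CPM in organoids (median 94.3), against 80.6 and 56.4 CPM in tissue, and did not pass (log2 0.22 ± 0.41, adjusted p = 0.73).

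Cell contact genes changed in both directions. Of 16 adherens, tight and gap junction genes, 3 rose and 6 fell. GJB2, the gap junction protein connexin 26 that is induced in wounds, had 870.4 to 3270.1 CPM in organoids (median 1695), against 338 and 308 CPM in tissue, and rose by 2.48 ± 0.48 (log2, adjusted p = 0.000395). CLDN8, a claudin of tight junctions, fell by 5.60 ± 0.54 (log2, adjusted p = 1.15e-07), and CLDN4, another claudin, fell by 4.15 ± 0.44 (log2, adjusted p = 1.95e-07). GJA1, connexin 43, had 49.3 to 151 CPM in organoids (median 98.2), against 311 and 323 CPM in tissue, and fell by 1.93 ± 0.45 (log2, adjusted p = 0.00226). E-cadherin, CDH1, had 91.4 to 321 CPM in organoids (median 199), against 260.3 and 320.4 CPM in tissue. Its change of −0.61 ± 0.27 on the log2 scale did not pass (adjusted p = 0.102), but CDH1 was called at −0.79 with size factors and with DESeq2, −0.81 with library totals and −0.64 in the fit of only the groups compared. Of 13 desmosome genes, 3 fell and 1 rose, with 2 rises without early inhibitor replicate 1 and no rise under either other scaling. DSG2, a desmoglein of hair and simple epithelia, fell by 1.92 ± 0.46 (log2, adjusted p = 0.0029), a call lost without tissue replicate 2 (log2 −1.90), while DSP, the desmosomal plaque protein, had 918 to 1836 CPM in organoids (median 1153), against 1016 and 1096 CPM in tissue, and a change of 0.23 ± 0.33 (log2, adjusted p = 0.643) with a 95% interval of −0.46 to 0.93.

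Of 20 keratinocyte transcription factors, 3 rose and 8 fell. TFAP2C, an AP-2 factor of early keratinocytes, had 30.5 to 84.3 CPM in organoids (median 54.5), against 14.5 and 20.9 CPM in tissue, and rose by 1.69 ± 0.36 (log2, adjusted p = 0.00103). KLF5, a factor of proliferating basal cells, had 174 to 318 CPM in organoids (median 221), against 75.3 and 82.95 CPM in tissue, and rose by 1.48 ± 0.26 (log2, adjusted p = 0.000162). PRDM1 (BLIMP1), which acts in late differentiation and in the sebaceous gland, had 4.04 to 90.1 CPM in organoids (median 8.07), against 122 and 116 CPM in tissue, and fell by 3.16 ± 0.43 (log2, adjusted p = 6.32e-06). GRHL1, a grainyhead factor of desmosome genes and hair anchorage in mice, fell by 2.63 ± 0.37 (log2, adjusted p = 9.69e-06). OVOL1, which limits progenitor growth in mice, fell by 1.93 ± 0.28 (log2, adjusted p = 1.26e-05). The factors that fell thus included several of differentiating layers. KLF5 and TFAP2C separated all organoid libraries from both tissue libraries, and so did PRDM1, GRHL1 and OVOL1. ETS1, the other factor that rose, at 0.86 (log2, adjusted p = 0.0403), overlapped tissue. Its call was lost with size factors (log2 0.68), library totals (log2 0.67) and several other alternatives.

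Follicle identity genes were mostly lower. Of 19 tested genes of follicle stem cells and outer root sheath, 13 fell and 2 rose (median −2.81). The falls included SERPINF1 (log2 −6.34), CD34 (log2 −5.94) and POSTN (log2 −5.11). Fibroblast and vessel markers, given below, also fell, and their part in this count was not tested. CD200, a surface marker of bulge cells, had 0 to 0.742 CPM in organoids (median 0), against 15.9 and 5.07 CPM in tissue, and fell by 5.42 ± 0.84 (log2, adjusted p = 0.000105). KRT75, the keratin of the companion layer, had 3.49 to 131 CPM in organoids (median 8.82), against 814 and 319.8 CPM in tissue, a log2 change of −5.06 ± 0.63 (adjusted p = 2.26e-06). KRT79, a keratin of the upper follicle and sebaceous duct, fell by 5.65 ± 0.33 (log2, adjusted p = 2.19e-10). NFIB, a factor that keeps bulge stem cells of mice from differentiating, had 57.5 to 202 CPM in organoids (median 84.7), against 231 and 270.4 CPM in tissue, a smaller log2 change of −1.37 ± 0.26 (adjusted p = 0.000404). DKK3, a secreted protein of the Dickkopf family, went the other way, with 166 to 596 CPM in organoids (median 417), against 68.7 and 103 CPM in tissue, and a rise of 2.14 ± 0.35 (log2, adjusted p = 7.15e-05). PHLDA1, known from human bulge cells and as an EGF-induced gene, had 98.2 to 781 CPM in organoids (median 412), against 46.2 and 86.1 CPM in tissue, and rose by 2.27 ± 0.46 (log2, adjusted p = 0.000722). SOX9, the outer root sheath factor, had 17 counts over all organoids and 0 in tissue, too few for a fold. LGR5, a marker of cycling stem cells in mice, had 3 counts in organoids and 19 in tissue, where its level was 58.2-fold the organoid level (17.1 to 307).

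The hair shaft and inner root sheath lists had the lowest medians of all lists. All 14 tested hair cortex and cuticle keratins fell (median −6.83), and so did all 11 tested inner root sheath genes (median −6.61); the counts were the same without either tissue library. The summed level of the hair keratins, in CPM of library totals, was 116 to 171 in organoids (median 155), against 16372 and 18262 in tissue. KRT33A, a cortex keratin, had 6.74 to 12.4 CPM in organoids (median 10.2), against 1442 and 1422 CPM in tissue, and fell by 7.12 ± 0.42 (log2, adjusted p = 2.48e-10). KRT35, a keratin of the early matrix and cuticle, had 5.38 to 9.65 CPM in organoids (median 7.56), against 1031 and 1047 CPM in tissue, and fell by 7.04 ± 0.36 (log2, adjusted p = 3.48e-11). KRT26, of the inner root sheath, had 0 to 4.84 CPM in organoids (median 2.23), against 435 and 584 CPM in tissue, and fell by 7.59 ± 0.47 (log2, adjusted p = 4.02e-10). In each of these genes the organoid libraries were close to each other and far below both tissue libraries. Hair keratin genes have near-identical copies, so the split of reads between single members is uncertain.

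Keratin-associated proteins, which form the matrix between hair keratin filaments, included the largest falls, those of KRTAP7-1 and KRTAP13-2, among called genes of at least 20 CPM without overlap. KRTAP7-1 had 24.2 to 44.4 CPM in organoids (median 30.8), against 10858 and 3972 CPM in tissue, a log2 change of −7.86 ± 0.60 (adjusted p = 7.7e-09). KRTAP8-1 had 59.8 to 104 CPM in organoids (median 82.1), against 12892 and 10222 CPM in tissue, a log2 change of −7.15 ± 0.46 (adjusted p = 6.95e-10). Both were counted in every organoid library. KRTAP13-2 and KRTAP27-1 fell, with changes of −7.61 ± 0.57 and −7.36 ± 0.46 (log2, adjusted p = 1.24e-08 and adjusted p = 4.54e-10), with 3 and 12 counts over all organoids against 101 and 266 in tissue. For KRTAP13-2 the tissue level was 309-fold the organoid level by summed counts, with an exact 95% interval of 103 to 1524 that covers counting error only. Of 17 regulators and early products of matrix and shaft, 13 fell (median −3.15). HOXC13, the homeobox activator of hair keratins, had 2.97 to 16.3 CPM in organoids (median 6.73), against 107 and 143 CPM in tissue, and fell by 4.21 ± 0.28 (log2, adjusted p = 1.91e-10). LEF1, the Wnt effector of the matrix, had 0.421 to 10.8 CPM in organoids (median 1.84), against 76.6 and 109.6 CPM in tissue, and fell by 5.30 ± 0.39 (log2, adjusted p = 4.12e-09). PADI3, the deiminase that modifies trichohyalin, fell by 6.41 ± 0.46 (log2, adjusted p = 1.39e-08), and DSG4, the desmoglein of the hair shaft, fell by 7.07 ± 0.56 (log2, adjusted p = 2.42e-08). PTCH1, a Hedgehog receptor that is also a Hedgehog target, fell by 2.70 ± 0.42 (log2, adjusted p = 4.14e-05).

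**Figure D2:**
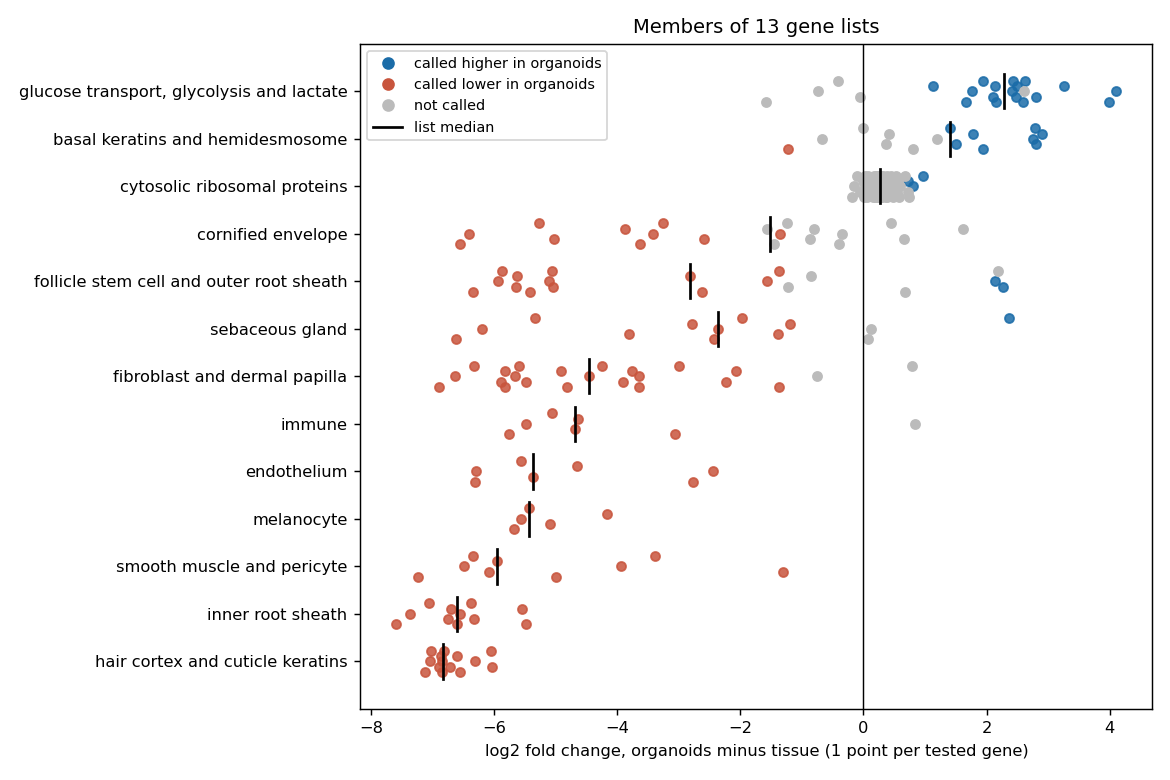
Log2 fold change, organoids minus tissue, of every tested member of selected gene lists (1 point per gene), coloured by its edgeR call, with the list median (bar). Glycolysis genes lay mostly right of 0 (median 2.29), ribosomal proteins close to it (0.27), and hair keratins between −7.12 and −6.04.

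Marker genes of the other cell types of the follicle were lower in organoids. In bulk RNA, fewer cells of a type and less RNA per cell cannot be told apart. Of 23 tested fibroblast and dermal papilla genes, 21 fell (median −4.46). Their summed level, in CPM of library totals, was 219 to 1013 in organoids (median 250.4), against 10272 and 6321 in tissue. COL3A1, a fibrillar collagen, had 10.1 to 243 CPM in organoids (median 14.9), against 2352 and 1168 CPM in tissue, with the highest organoid value in early replicate 1 without inhibitor. VIM, the intermediate filament of mesenchymal cells, had 8.13 to 135 CPM in organoids (median 14.5), against 633 and 543 CPM in tissue, and fell by 4.82 ± 0.33 (log2, adjusted p = 1.99e-10). PDGFRA, a PDGF receptor of fibroblasts, was at 0 in 7 of the 9 organoid libraries, with 6 counts in all against 38 in tissue.

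All 9 smooth muscle and pericyte genes fell (median −5.96), with a summed level of 68.8 to 229 in organoids (median 129.7), against 2817 and 2093 in tissue. CNN1, calponin of the contractile apparatus, had 0 to 2.69 CPM in organoids (median 0.230), against 88.5 and 39.3 CPM in tissue, and fell by 7.23 ± 0.49 (log2, adjusted p = 2.93e-09). ACTG2, an enteric and visceral smooth muscle actin, fell by 6.49 ± 0.32 (log2, adjusted p = 5.88e-12). All 7 endothelial genes fell (median −5.37), summing to 4.58 to 16.3 in organoids (median 8.25), against 129.8 and 110.5 in tissue. PECAM1, the adhesion molecule CD31, had 2 counts over all organoids and 36 in tissue, where its level was 165-fold the organoid level (42.6 to 1417). PLVAP, the diaphragm protein of fenestrated vessels, had 3 counts in organoids and 23 in tissue, where its level was 70.4-fold the organoid level (21.3 to 366). Of 7 immune genes 6 fell (median −4.69, or −4.64 with PTPRC at its bound). PTPRC, the leukocyte antigen CD45, was at 0 in all 9 organoid libraries with 8 counts in tissue, at least 24.1-fold lower against 3 counts over the organoid group. TYROBP, an adaptor of myeloid cells, had 2 counts in organoids and 19 in tissue, where its level was 87.2-fold the organoid level (21.1 to 773).

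All 5 tested melanocyte genes fell (median −5.43). TYRP1, a melanin-synthesis enzyme, had 4.65 to 229 CPM in organoids (median 6.45), against 457 and 861 CPM in tissue, with the 229 CPM in early replicate 1 without inhibitor, and fell by 5.56 ± 0.61 (log2, adjusted p = 6.61e-07). PMEL, the melanosome matrix protein, had 0 to 16.1 CPM in organoids (median 1.84), against 99.1 and 139 CPM in tissue, and fell by 5.67 ± 0.46 (log2, adjusted p = 1.66e-08). All 3 tested Schwann cell genes fell, with PMP22 of the myelin sheath at −4.74 ± 0.40 (log2, adjusted p = 6.01e-09). Of 6 sweat gland and simple epithelial genes 5 fell. KRT7 and KRT19, keratins of simple and glandular epithelia, fell, with changes of −5.37 ± 0.40 and −5.03 ± 0.46 (log2, adjusted p = 6.95e-10 and adjusted p = 3.18e-08).

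Genes of lipid-storing cells also fell. Of 7 adipocyte genes 6 fell (median −5.34). The summed level of the list, in CPM of library totals, fell less. It was 70.7 to 624 in organoids (median 300), against 689 and 1247 in tissue. LPL, lipoprotein lipase, had 0 to 2.69 CPM in organoids (median 0.854), against 23.8 and 53.2 CPM in tissue, and fell by 6.03 ± 0.49 (log2, adjusted p = 3.55e-08). Of 13 sebaceous genes 10 fell and 1 rose, and the falls numbered 9 without tissue replicate 1 and 4 without replicate 2. ELOVL3, a fatty acid elongase of the sebaceous gland, had 0 to 2.69 CPM in organoids (median 1.38), against 66.1 and 213 CPM in tissue, and fell by 6.62 ± 0.46 (log2, adjusted p = 2.15e-09). CIDEA, a lipid droplet protein of sebocytes, fell by 6.20 ± 0.49 (log2, adjusted p = 7.53e-09). FADS2, the delta-6 desaturase that makes sapienate in human sebum, had 21.2 to 64.6 CPM in organoids (median 47.1), against 7.93 and 8.23 CPM in tissue, a rise of 2.37 ± 0.50 (log2, adjusted p = 0.000941).

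Genes of glucose metabolism were mostly higher in organoids. Of 22 tested genes of glucose uptake, glycolysis and lactate handling, 17 rose (median 2.29). With either other scaling 16 rose and 1 fell, and the rises numbered 13 without tissue replicate 1 and 14 without replicate 2. ENO1, enolase, had 1846 to 6232 CPM in organoids (median 4088), against 423 and 396 CPM in tissue, and rose by 3.25 ± 0.47 (log2, adjusted p = 1.69e-05). PFKL, the phosphofructokinase that commits glucose to glycolysis, had 9.69 to 21.1 CPM in organoids (median 15.7), against 1.32 and 0.633 CPM in tissue, and rose by 3.99 ± 0.65 (log2, adjusted p = 7.6e-05). PFKL had 2 counts in tissue, so that its organoid level was 16.2-fold the tissue level by summed counts, with an exact 95% interval of 4.44 to 134. PGK1, phosphoglycerate kinase, had 319 to 1731 CPM in organoids (median 926), against 123 and 146 CPM in tissue, and rose by 2.60 ± 0.49 (log2, adjusted p = 0.000301). In these genes every organoid library exceeded both tissue libraries. LDHA, which converts pyruvate to lactate, had 1419 to 4119.7 CPM in organoids (median 2777), against 382 and 474 CPM in tissue, and rose by 2.63 ± 0.45 (log2, adjusted p = 0.000108), while LDHB, the subunit that favours the reverse reaction, had −0.74 ± 0.36 (log2, adjusted p = 0.128). LDHB was called lower with both other scalings, at −0.92 and −0.94 on the log2 scale, with DESeq2 at −0.92, and in the fits of 17 libraries and of only the groups compared at −0.70 and −0.77. SLC16A1, the lactate transporter MCT1, had 20.2 to 144 CPM in organoids (median 75.7), against 11.9 and 6.33 CPM in tissue, and rose by 2.80 ± 0.47 (log2, adjusted p = 8.67e-05).

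Of 19 hypoxia response genes 10 rose and 1 fell, but the rises numbered 3 without tissue replicate 1 and 2 without replicate 2. CA12, a membrane carbonic anhydrase, had 186 to 399 CPM in organoids (median 315), against 33.03 and 50.03 CPM in tissue, and rose by 2.83 ± 0.49 (log2, adjusted p = 0.000131). ERO1A, an oxidase of the endoplasmic reticulum, had 12.2 to 59.6 CPM in organoids (median 34.3), against 1.32 and 8.23 CPM in tissue, and rose by 2.19 ± 0.51 (log2, adjusted p = 0.00244), a call lost without tissue replicate 1 (log2 1.67). CA9, the classic hypoxia-induced carbonic anhydrase, rose by 3.82 ± 0.90 (log2, adjusted p = 0.00265), a call lost without tissue replicate 2 (log2 3.89). Its 8.85 to 303 CPM in organoids (median 181) overlapped the 9.25 and 10.1 CPM of tissue. VEGFA, the vessel growth factor, rose by 2.59 ± 0.71 (log2, adjusted p = 0.00852), a call lost without tissue replicate 1 (log2 2.19) or tissue replicate 2 (log2 3.53). ANGPTL4, a lipase inhibitor also induced by fatty acids, fell by 1.91 ± 0.44 (log2, adjusted p = 0.00217). In the pentose phosphate and serine pathways 8 of 14 rose, against 4 without tissue replicate 1 and 2 without replicate 2. PGD, a dehydrogenase of the oxidative pentose phosphate route, had 317 to 734 CPM in organoids (median 555), against 141 and 191 CPM in tissue, and rose by 1.59 ± 0.32 (log2, adjusted p = 0.00073). PSPH, the last enzyme of serine synthesis, rose by 1.30 ± 0.33 (log2, adjusted p = 0.00456), a call lost without tissue replicate 2 (log2 1.22).

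Mitochondrial genes gave few calls that held without either tissue library. Of 23 TCA cycle genes 3 rose and 1 fell, and only 1 rose with either other scaling. IDH3A, a subunit of the NAD-linked isocitrate dehydrogenase, had 79.9 to 141 CPM in organoids (median 126.4), against 47.6 and 61.4 CPM in tissue, and rose by 1.16 ± 0.33 (log2, adjusted p = 0.0125), a call lost without tissue replicate 1 (log2 1.02) or tissue replicate 2 (log2 1.35). CS, citrate synthase, had 298 to 461 CPM in organoids (median 409), against 267 and 356 CPM in tissue, a difference of 0.33 ± 0.26 on the log2 scale with an interval of −0.22 to 0.88. Among nuclear-encoded oxidative phosphorylation genes, 28 of 37 did not overlap between organoids and tissue, against 34.5% of all genes. The summed level of that list, in CPM of library totals, was 7884 to 10243 in organoids (median 8992). In tissue it was 6169 and 6380. Of 37 nuclear-encoded oxidative phosphorylation genes 8 rose (median 0.71), but their calls were all lost when either tissue library was left out. CYC1, cytochrome c1, had 40.6 to 69.95 CPM in organoids (median 52.7), against 23.8 and 27.2 CPM in tissue, and rose by 1.06 ± 0.33 (log2, adjusted p = 0.0199), a call lost without tissue replicate 1 (log2 1.00) or tissue replicate 2 (log2 1.16). Of the 13 mitochondrially encoded genes 2 rose (median 0.77), calls that were lost without either tissue library.

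Genes of protein synthesis follow by function. Of 73 cytosolic ribosomal protein genes, which have many near-identical pseudogenes, 3 rose, a share below the background, and 51 had a 95% interval within −1 and 1. That interval rule held for 1629 of all genes (16.5%). The 3 calls were lost with either other scaling and without either tissue library. RPL6 had 915 to 1164 CPM in organoids (median 962), against 838 and 878 CPM in tissue, a difference of 0.24 ± 0.26 on the log2 scale. Ribosome biogenesis genes rose in 8 of 23 (median 1.05), against 3 without tissue replicate 1 and 1 without replicate 2, and 12 without early inhibitor replicate 1. RRP9, a U3 snoRNP protein of rRNA processing, had 16.3 to 23.5 CPM in organoids (median 21.2), against 9.25 and 5.70 CPM in tissue, and rose by 1.51 ± 0.46 (log2, adjusted p = 0.0165), a call lost without tissue replicate 2 (log2 1.12). Translation factors rose in 5 of 18, against 3 without tissue replicate 1 and 2 without replicate 2. EIF4EBP1, the mTOR-regulated inhibitor of cap binding, had 20.2 to 165 CPM in organoids (median 78.5), against 10.6 and 8.23 CPM in tissue, and rose by 2.83 ± 0.52 (log2, adjusted p = 0.000239). EIF4A1, the helicase that unwinds mRNA leaders, had 237 to 377 CPM in organoids (median 327), against 108 and 113 CPM in tissue, and rose by 1.57 ± 0.30 (log2, adjusted p = 0.000412). EEF1A1, the abundant elongation factor, had 1195 to 2181 CPM in organoids (median 1615), against 1574 and 1467 CPM in tissue, a difference of 0.07 ± 0.29 on the log2 scale. Of 30 proteasome genes 2 rose, calls that were lost with either other scaling and without either tissue library.

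Chaperones rose in 10 of 23 and 1 fell, and the rises numbered 2 without tissue replicate 1 and 1 without replicate 2. HSPA8, the constitutive HSP70, had 2143 to 3547 CPM in organoids (median 2459.8), against 790.2 and 1002 CPM in tissue, and rose by 1.56 ± 0.32 (log2, adjusted p = 0.000703). CRYAB, a small heat shock protein of muscle and nerve, fell by 4.65 ± 0.30 (log2, adjusted p = 1.07e-10). Of 16 amino acid transport and ATF4 target genes 4 were higher, and 1 was higher when either tissue library was left out. The 2 that were lower are a share below the 19.0% of all genes. CHAC1, a glutathione-degrading enzyme, had 8.43 to 33.2 CPM in organoids (median 12.6), against 366 and 426 CPM in tissue, and fell by 4.87 ± 0.37 (log2, adjusted p = 1.18e-09). SLC1A4, a neutral amino acid carrier, fell by 2.13 ± 0.39 (log2, adjusted p = 0.000267).

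Of 23 redox genes 7 rose, or 3 when either tissue library was left out, and the 4 that fell are a share near the 19.0% of all genes. NQO1, the quinone reductase and NRF2 target, had 1407 to 11847 CPM in organoids (median 7485), against 367 and 417 CPM in tissue, and rose by 3.89 ± 0.54 (log2, adjusted p = 9.54e-06). GPX2, an epithelial glutathione peroxidase, had 117 to 811 CPM in organoids (median 337), against 42.3 and 36.1 CPM in tissue, and rose by 2.97 ± 0.49 (log2, adjusted p = 6.56e-05). TXN, thioredoxin, had 1071 to 3501 CPM in organoids (median 1973), against 221 and 268 CPM in tissue, and rose by 2.89 ± 0.38 (log2, adjusted p = 4.63e-06). TXNRD1, which reduces thioredoxin and is an NRF2 target as well, had 27.8 to 67.3 CPM in organoids (median 41.3), against 131 and 143 CPM in tissue, and fell by 1.68 ± 0.27 (log2, adjusted p = 6.11e-05). MGST1, a microsomal glutathione transferase, fell by 4.38 ± 0.44 (log2, adjusted p = 1.52e-07), and CAT, catalase, fell by 2.21 ± 0.33 (log2, adjusted p = 1.88e-05). Cholesterol synthesis genes rose in 9 of 22, or in 3 when either tissue library was left out. SQLE, squalene epoxidase, had 73.5 to 127 CPM in organoids (median 88.8), against 18.5 and 22.8 CPM in tissue, and rose by 2.12 ± 0.34 (log2, adjusted p = 5.32e-05).

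Cell cycle genes leaned upward with wide errors. Of 24 G2 and mitosis genes 8 rose (median 1.32), and of 23 S phase genes 5 rose (median 0.98). Without tissue replicate 1 the counts were 0 and 1, without replicate 2 they were 2 and 0, and without early inhibitor replicate 1 they were 12 and 7. CKS2, a CDK-binding protein of mitosis, had 139.9 to 324 CPM in organoids (median 244), against 52.9 and 77.3 CPM in tissue, and rose by 1.87 ± 0.52 (log2, adjusted p = 0.00972), a call lost without tissue replicate 1 (log2 1.66) or tissue replicate 2 (log2 2.17). GINS2, of the replicative helicase, had 17.2 to 36.99 CPM in organoids (median 23.6), against 10.6 and 8.23 CPM in tissue, and rose by 1.47 ± 0.39 (log2, adjusted p = 0.00648), a call lost without tissue replicate 2 (log2 1.25). PLK1, the mitotic kinase, had 80.6 to 297 CPM in organoids (median 158), against 33.03 and 45.6 CPM in tissue, and 2.11 ± 0.81 on the log2 scale did not pass (adjusted p = 0.0574). PLK1 was called at 2.17 without early inhibitor replicate 1 (adjusted p = 0.0463), at 1.95 with DESeq2 (adjusted p = 0.0494), at 2.21 with no filter, at 2.15 in the fit of 17 libraries and at 2.08 in that of only the groups compared. MKI67, the proliferation marker, was not tested, with 87 counts in organoids and 7 in tissue. Among CDK inhibitors, D cyclins and p53 targets, 4 of 17 rose and 3 fell. CDKN2A, the p16 and p14ARF locus that accumulates in cultured keratinocytes, had 14.3 to 320.00 CPM in organoids (median 43.05), against 6.61 and 8.87 CPM in tissue, and rose by 3.31 ± 0.80 (log2, adjusted p = 0.0031), a call lost without tissue replicate 2 (log2 3.56). SESN1, a p53-induced sestrin, had 0 to 4.07 CPM in organoids (median 2.03), against 15.9 and 15.8 CPM in tissue, and fell by 2.83 ± 0.58 (log2, adjusted p = 0.00086), while CDKN1A (p21) had 0.54 ± 0.44 and did not pass (adjusted p = 0.386).

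**Figure D3:**
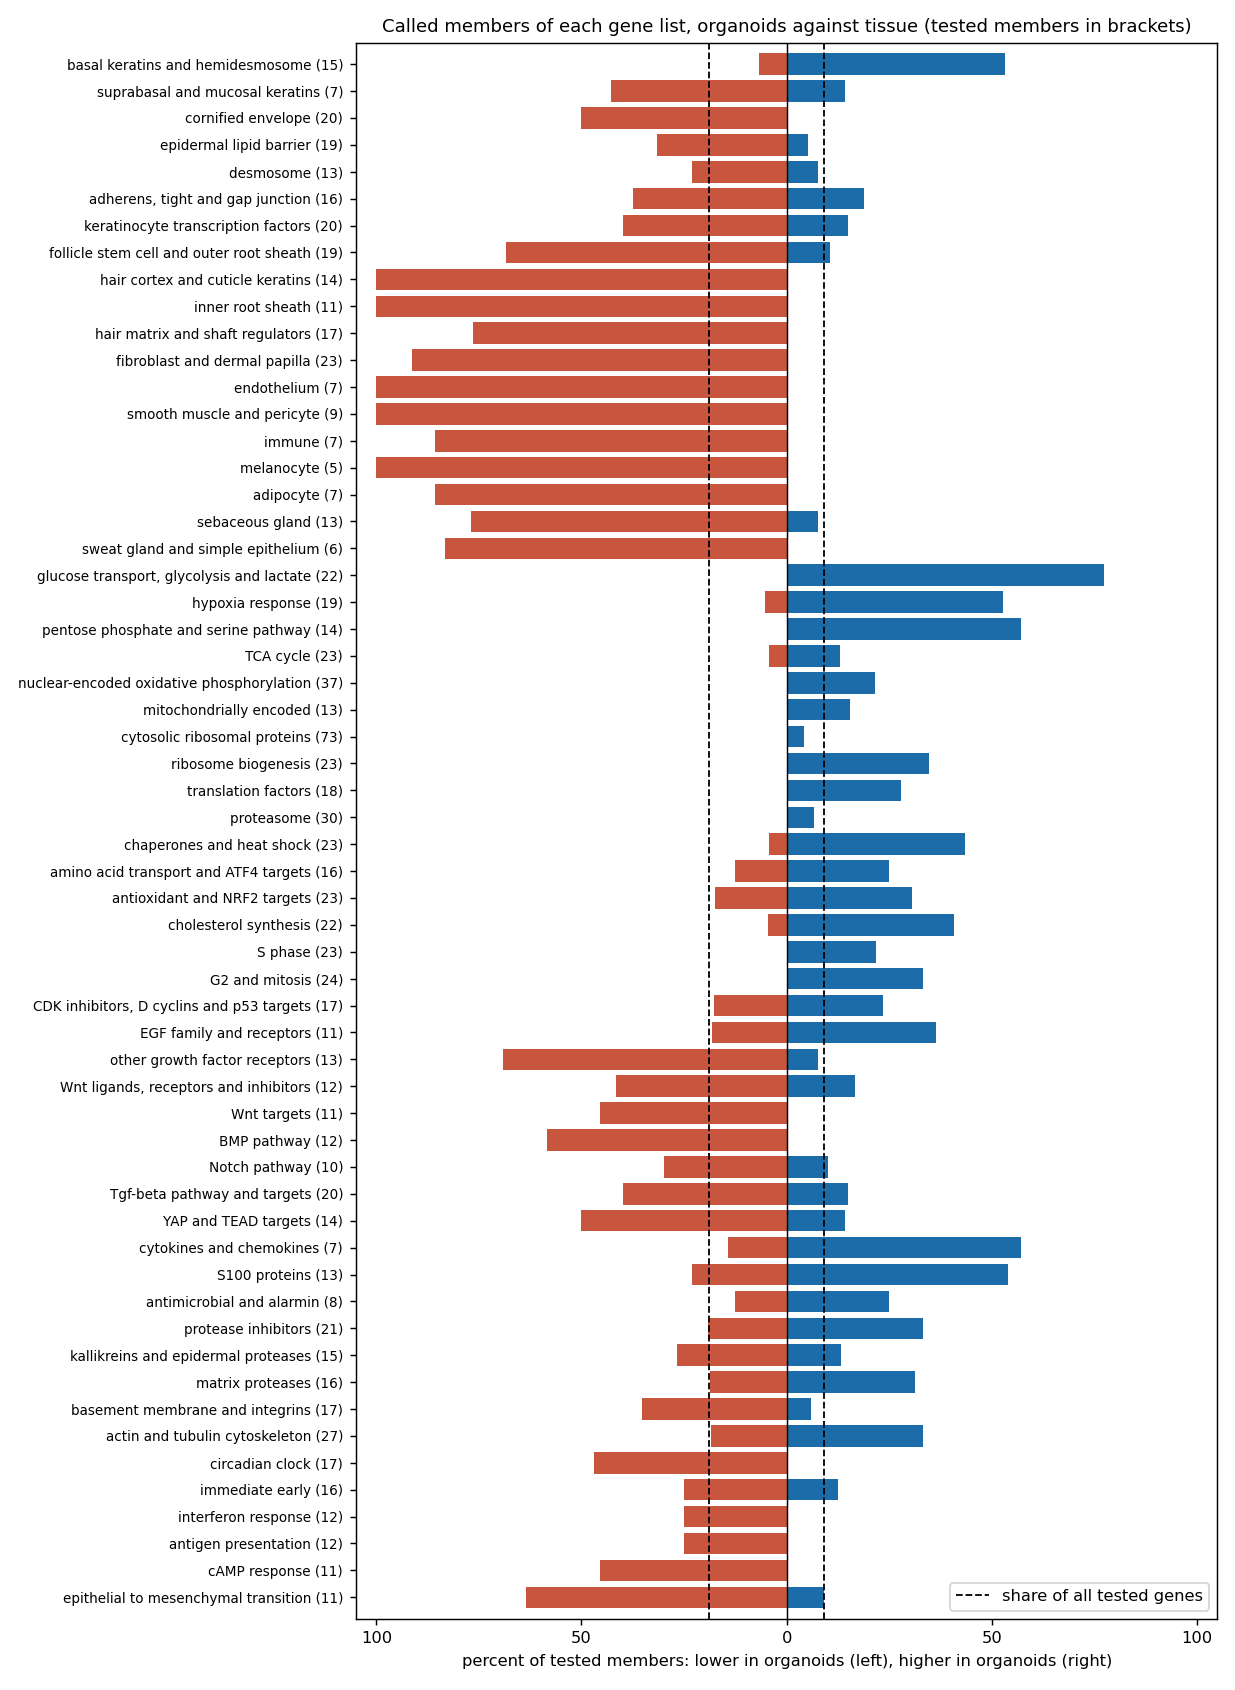
Percent of tested members of each gene list called lower (left, red) or higher (right, blue) in organoids by the edgeR test; dashed lines mark the shares of all tested genes, 19.0% lower and 9.05% higher. Hair keratins and inner root sheath reach 100% lower, and glycolysis has the longest bar to the right.

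Signalling genes of the follicle fell in several pathways. Of 12 Wnt ligands, receptors and inhibitors 5 fell and 2 rose, and of 11 Wnt targets 5 fell. FZD1, a Wnt receptor, had 0 to 1.61 CPM in organoids (median 0.582), against 40.96 and 27.2 CPM in tissue, and fell by 6.05 ± 0.48 (log2, adjusted p = 1.5e-08). LGR4, the R-spondin receptor, had 10.5 to 37.9 CPM in organoids (median 24.2), against 100.4 and 113 CPM in tissue, and fell by 2.25 ± 0.28 (log2, adjusted p = 2.02e-06). APCDD1, a Wnt-induced inhibitor linked to hereditary hair loss in humans, had 2.02 to 29.6 CPM in organoids (median 5.24), against 307 and 272 CPM in tissue, and fell by 5.54 ± 0.28 (log2, adjusted p = 1e-11). NKD1, a feedback inhibitor, fell by 4.44 ± 0.59 (log2, adjusted p = 1.1e-05), and AXIN2, the general Wnt target, fell by 1.55 ± 0.40 (log2, adjusted p = 0.00593), a call lost without tissue replicate 2 (log2 −1.44). In the BMP pathway 7 of 12 fell. BMP4, a ligand made by the dermal papilla, had 0 to 4.04 CPM in organoids (median 1.48), against 63.4 and 74.7 CPM in tissue, and fell by 5.04 ± 0.40 (log2, adjusted p = 3.43e-09). ID4 and ID2, inhibitors of differentiation induced by BMP, fell, with changes of −3.82 ± 0.55 and −2.81 ± 0.32 (log2, adjusted p = 1.5e-05 and adjusted p = 5.6e-07), whereas ID1 had 0.85 ± 0.47 (log2, adjusted p = 0.187). Of 10 Notch genes 3 fell and 1 rose. NOTCH2 had 18.5 to 42.5 CPM in organoids (median 31.3), against 122 and 115 CPM in tissue, and fell by 2.06 ± 0.27 (log2, adjusted p = 3.94e-06), while NOTCH1, the main epidermal receptor, had −0.46 ± 0.35 and did not pass (adjusted p = 0.351). The fibroblast, muscle and vessel markers given above fell in the same comparison, and their part in the results of these pathways was not tested.

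Tgf-beta pathway genes were lower in 8 of 20 and higher in 3. Of the 9 organoid libraries 5 were grown with a Tgf-beta inhibitor, and the tissue was not cultured. CTGF, a Tgf-beta and YAP target, had 0 to 4.04 CPM in organoids (median 0.854), against 68.7 and 35.5 CPM in tissue, and fell by 5.44 ± 0.51 (log2, adjusted p = 7.66e-08). The log2 change was −5.81 in early and −4.83 in mid-term organoids with inhibitor, and −5.39 in early and −5.74 in mid-term organoids without it. THBS1, thrombospondin, had 4.04 to 108 CPM in organoids (median 17.2), against 403 and 343 CPM in tissue, and fell by 4.12 ± 0.52 (log2, adjusted p = 2.32e-06). PMEPA1, a feedback inhibitor of the pathway, had 0.582 to 36.99 CPM in organoids (median 4.38), against 56.8 and 55.1 CPM in tissue, and fell by 2.72 ± 0.42 (log2, adjusted p = 3.79e-05), a call lost with the 9 organoid libraries as 1 group (log2 −1.78). LTBP1, which stores latent Tgf-beta in matrix, had 40.4 to 122 CPM in organoids (median 95.4), against 11.9 and 18.997 CPM in tissue, and rose by 2.48 ± 0.45 (log2, adjusted p = 0.000222).

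Of 14 YAP and TEAD genes 7 fell and 2 rose. AXL, a receptor kinase, had 0.421 to 6.40 CPM in organoids (median 2.97), against 25.1 and 25.96 CPM in tissue, and fell by 3.34 ± 0.49 (log2, adjusted p = 2.02e-05), and NT5E, the ectonucleotidase CD73, had 24.4 to 43.2 CPM in organoids (median 38.98), against 3.96 and 6.33 CPM in tissue, and rose by 2.75 ± 0.47 (log2, adjusted p = 0.000102). Of 11 genes of epithelial to mesenchymal transition 7 fell (median −3.64), several of which fibroblasts also express. ZEB1 and ZEB2, transcriptional repressors of the epithelial state, fell, with changes of −5.26 ± 0.69 and −4.61 ± 0.49 (log2, adjusted p = 7.02e-06 and adjusted p = 6.55e-07). SNAI2, a snail factor that basal keratinocytes express, rose by 0.99 ± 0.29 (log2, adjusted p = 0.0123), a call lost without tissue replicate 1 (log2 1.10) or tissue replicate 2 (log2 0.87).

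Growth factor genes differed between families. Of 11 EGF family and receptor genes 4 rose and 2 fell. NRG1, the ligand of ERBB3 and ERBB4, had 25.6 to 139 CPM in organoids (median 63.99), against 2.64 and 6.33 CPM in tissue, and rose by 3.77 ± 0.45 (log2, adjusted p = 1.24e-06). HBEGF, a wound-induced ligand, had 18.1 to 120.3 CPM in organoids (median 81.8), against 14.5 and 12.7 CPM in tissue, and rose by 1.95 ± 0.38 (log2, adjusted p = 0.000433). ERBB3, a receptor of NRG1, had 1.71 to 15.4 CPM in organoids (median 7.49), against 33.03 and 40.5 CPM in tissue, and fell by 2.42 ± 0.38 (log2, adjusted p = 3.9e-05), so ligand and receptor moved apart. EGFR had 133 to 294 CPM in organoids (median 195), against 246 and 263 CPM in tissue and did not pass (log2 −0.44 ± 0.28, adjusted p = 0.254). Of 13 other growth factor and receptor genes 9 fell, against 6 without tissue replicate 1 and 5 without replicate 2, and MET, the receptor of hepatocyte growth factor, rose by 1.95 ± 0.45 (log2, adjusted p = 0.00218). IGFBP4, an IGF-binding protein, had 1.48 to 20.2 CPM in organoids (median 5.48), against 63.4 and 27.9 CPM in tissue, and fell by 3.12 ± 0.50 (log2, adjusted p = 5.34e-05). IGF2 had 1.01 to 58.9 CPM in organoids (median 3.49), against 147 and 75.4 CPM in tissue, and fell by 4.35 ± 0.99 (log2, adjusted p = 0.00199).

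S100A8, S100A9, S100A12 and the cytokine IL18 were among the 15 largest rises of genes with a gene symbol. The call of S100A9 was lost without tissue replicate 2 (log2 3.96). Of 13 S100 genes 7 rose and 3 fell, and the rises numbered 4 without tissue replicate 1 and 3 without replicate 2. S100A8, a subunit of calprotectin that is induced in wounds, had 328 to 13869.6 CPM in organoids (median 2365), against 144 and 125 CPM in tissue, and rose by 4.13 ± 0.78 (log2, adjusted p = 0.000304). S100A12, a calgranulin, had 192 to 20792 CPM in organoids (median 2387), against 157 and 139 CPM in tissue, and rose by 3.94 ± 1.00 (log2, adjusted p = 0.00482), a call lost without tissue replicate 1 (log2 4.05) or tissue replicate 2 (log2 3.83). The top value of both was in early inhibitor replicate 1, at 13869.6 and 20792 CPM, and the next organoid values were 3328 and 3949 CPM. S100A2, a p63-linked basal keratinocyte protein, had 1823 to 16560.4 CPM in organoids (median 7817), against 1305 and 1112 CPM in tissue, and rose by 2.49 ± 0.41 (log2, adjusted p = 7.35e-05). S100A3, of the hair cuticle, fell by 7.08 ± 0.35 (log2, adjusted p = 3.15e-11). Of 8 antimicrobial and alarmin genes 2 rose and 1 fell. Of 7 cytokine and chemokine genes 4 rose and 1 fell. IL18, an inflammasome cytokine stored by keratinocytes, had 4.40 to 56.2 CPM in organoids (median 13.7), against 1.32 and 1.27 CPM in tissue, and rose by 3.47 ± 0.90 (log2, adjusted p = 0.00633), a call lost without tissue replicate 2 (log2 3.42). The 3 tissue counts of IL18 gave a 13.7-fold higher organoid level by summed counts (4.66 to 66.8). PTGS2, inducible cyclooxygenase, had 9.25 to 64.5 CPM in organoids (median 34.6), against 3.96 and 3.17 CPM in tissue, and rose by 3.06 ± 0.53 (log2, adjusted p = 0.000124). PTGS1, the constitutive enzyme, had 222 to 401 CPM in organoids (median 272), against 29.1 and 21.5 CPM in tissue, and rose by 3.55 ± 0.34 (log2, adjusted p = 4.62e-08). LTF, lactoferrin of glandular secretions, fell by 6.39 ± 0.32 (log2, adjusted p = 3.48e-11).

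Of 21 protease inhibitors 7 rose, and the 4 that fell are a share near the 19.0% of all genes. SERPINB6, an intracellular serpin, had 13.5 to 77.7 CPM in organoids (median 45.9), against 5.29 and 8.23 CPM in tissue, and rose by 2.51 ± 0.53 (log2, adjusted p = 0.000979). SERPINB13, a serpin of differentiating keratinocytes, had 0 to 1.35 CPM in organoids (median 0.230), against 21.1 and 18.997 CPM in tissue, and fell by 5.72 ± 0.59 (log2, adjusted p = 7.87e-07). CST6, the cystatin of the cornified layer and follicle, fell by 2.79 ± 0.59 (log2, adjusted p = 0.000935), a call lost with the 9 organoid libraries as 1 group (log2 −2.07). Of 15 kallikreins and epidermal proteases 4 fell and 2 rose, and 7 fell without early inhibitor replicate 1. KLK12 fell by 4.16 ± 0.85 (log2, adjusted p = 0.000744), and KLK10 fell by 1.96 ± 0.56 (log2, adjusted p = 0.0112), a call lost without tissue replicate 1 (log2 −1.92) or tissue replicate 2 (log2 −1.98) or with the 9 organoid libraries as 1 group (log2 −1.68). Of 16 matrix proteases and inhibitors 5 rose, or 3 when either tissue library was left out or either other scaling used, and 3 fell. MMP28, epilysin of keratinocytes, had 6.73 to 34.3 CPM in organoids (median 14.2), against 0 and 1.27 CPM in tissue, and rose by 4.13 ± 0.82 (log2, adjusted p = 0.00057). MMP28 had 2 counts in tissue, both in replicate 2, and its organoid level was 17.3-fold the tissue level (exact 95% interval 4.74 to 143). ADAMTS5, an aggrecanase of dermal cells, fell by 5.14 ± 0.42 (log2, adjusted p = 7.49e-09).

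Of 17 basement membrane and integrin genes outside the hemidesmosome 6 fell and 1 rose. NID1, nidogen, had 2.91 to 9.42 CPM in organoids (median 3.96), against 114 and 113 CPM in tissue, and fell by 4.52 ± 0.40 (log2, adjusted p = 1.5e-08). ITGB8, an integrin that activates latent Tgf-beta, fell by 4.29 ± 0.72 (log2, adjusted p = 0.000132). ITGB6, another Tgf-beta-activating integrin that is induced in wounds, had 184 to 624 CPM in organoids (median 332), against 71.4 and 101 CPM in tissue, and rose by 1.89 ± 0.42 (log2, adjusted p = 0.0015), so these integrin subunits moved in opposite directions. Of 27 cytoskeletal genes 9 rose and 5 fell, and 5 rose and 6 fell with either other scaling. TMSB4X, thymosin beta 4, had 2543 to 6138 CPM in organoids (median 3724), against 983 and 822 CPM in tissue, and rose by 2.19 ± 0.41 (log2, adjusted p = 0.000294). MSN, moesin, rose by 1.49 ± 0.32 (log2, adjusted p = 0.00114), a call lost without tissue replicate 2 (log2 1.21). TPM2, a muscle tropomyosin, had 0 to 9.42 CPM in organoids (median 2.97), against 249.7 and 123 CPM in tissue, and fell by 5.75 ± 0.38 (log2, adjusted p = 2.45e-10), together with the smooth muscle markers given above.

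Clock genes were lower in 8 of 17 in the edgeR test, against 4 without tissue replicate 1 and 3 without replicate 2. PER2, a period gene, had 0 to 5.38 CPM in organoids (median 0.677), against 19.8 and 17.7 CPM in tissue, and fell by 4.65 ± 0.71 (log2, adjusted p = 5.51e-05). HLF, a clock-output factor, fell by 4.03 ± 0.78 (log2, adjusted p = 0.000642), and RORA, a nuclear receptor of the clock, fell by 2.36 ± 0.47 (log2, adjusted p = 0.000604). ARNTL and CLOCK, the core activators, had 0.06 ± 0.46 and 0.85 ± 0.40 and did not pass (adjusted p = 0.945 and adjusted p = 0.114). The time of day of sampling is not in the labels. Of 11 cAMP-response genes 5 fell, and 1 fell without tissue replicate 2. Of 16 immediate early genes 2 rose and 4 fell, and 1 rose and 5 fell with either other scaling. FOSL1, an AP-1 factor of migrating keratinocytes, had 47.6 to 118 CPM in organoids (median 85.5), against 9.25 and 5.70 CPM in tissue, and rose by 3.36 ± 0.50 (log2, adjusted p = 2.75e-05). NR4A2, an orphan nuclear receptor, fell by 3.47 ± 0.75 (log2, adjusted p = 0.00142), a call lost without tissue replicate 2 (log2 −2.23).

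Interferon and antigen genes gave few calls. Of 12 interferon-response genes 3 fell, a share close to the background. Of 12 antigen presentation genes 3 fell. DLA-DRA, a class II chain of antigen-presenting cells, had 0 to 1.26 CPM in organoids (median 0.440), against 19.8 and 22.8 CPM in tissue, and fell by 5.49 ± 0.49 (log2, adjusted p = 1.3e-07). B2M, the class I light chain, had 119 to 397 CPM in organoids (median 199.9), against 174 and 189 CPM in tissue, with a difference of 0.20 ± 0.44 and an interval of −0.71 to 1.12. DLA88, a class I heavy chain with near-identical copies, had −0.13 ± 0.52 (log2, adjusted p = 0.881).

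The 15 largest rises among genes of at least 20 CPM without overlap added several genes outside these lists. FABP3, a fatty acid binding protein, had 261 to 952 CPM in organoids (median 636), against 26.4 and 23.4 CPM in tissue, the top rise at 4.63 ± 1.29 (log2, adjusted p = 0.00992), a call lost without tissue replicate 1 (log2 4.73) or tissue replicate 2 (log2 4.52). SOX15, a SOX factor of stratified epithelia, had 33.6 to 144 CPM in organoids (median 115), against 2.64 and 8.23 CPM in tissue, and rose by 4.07 ± 0.63 (log2, adjusted p = 3.65e-05). ARG2, mitochondrial arginase, had 31.6 to 404 CPM in organoids (median 143), against 5.29 and 10.8 CPM in tissue, and rose by 3.93 ± 0.62 (log2, adjusted p = 4.45e-05). CARD10, a scaffold of NF-kappaB signalling, had 30.9 to 62.6 CPM in organoids (median 49.7), against 2.64 and 5.07 CPM in tissue, and rose by 3.49 ± 0.46 (log2, adjusted p = 5.09e-06). CA2, a cytosolic carbonic anhydrase, had 282 to 1813 CPM in organoids (median 524), against 50.2 and 68.4 CPM in tissue. Its organoid values split, with 282, 524, 364, 451 and 445 CPM with inhibitor and 1593, 1215, 1813 and 1340.05 CPM without it. The difference of CA2 among the 4 organoid groups did not pass (adjusted p = 0.133). Among the 15 largest falls were SEPP1, a plasma selenium carrier, with 0 to 4.04 CPM in organoids (median 0.881), against 157 and 135 CPM in tissue, and a log2 change of −7.35 ± 0.39, TNNI1, a troponin of slow skeletal muscle, with a log2 change of −7.45 ± 0.48, and AZGP1, a secreted zinc-binding glycoprotein, with a log2 change of −7.24 ± 0.53.

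The steadiest genes were those at 200 CPM or more on both sides with the narrowest interval. Of 488 genes at that level, 148 with a gene symbol had an interval within −1 and 1. Genes without a symbol were left out of the 148. DDX5, an RNA helicase, had 483 to 636 CPM in organoids (median 559.6), against 536 and 659 CPM in tissue, a difference of −0.08 ± 0.25 on the log2 scale with an interval of −0.60 to 0.44. UBB, a ubiquitin gene, had 324 to 479 CPM in organoids (median 390.2), against 418 and 459 CPM in tissue and −0.21 ± 0.24 on the log2 scale. MTDH, an endoplasmic reticulum membrane protein, had 251 to 396 CPM in organoids (median 309), against 296 and 378 CPM in tissue and −0.06 ± 0.25 on the log2 scale. In all 3 the tissue values lay inside or near the organoid range.

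Each organoid group also differed from tissue on its own. Early organoids with inhibitor had 748 genes higher (7.56%) and 1424 lower (14.4%), mid-term organoids with inhibitor 650 higher (6.57%) and 1297 lower (13.1%), early organoids without inhibitor 371 higher (3.75%) and 1065 lower (10.8%), and mid-term organoids without inhibitor 716 higher (7.24%) and 1564 lower (15.8%). In all 2172, 1947, 1436 and 2280 genes were called in these groups. The 4 comparisons share both tissue libraries, and groups differ in number and depth of libraries, so these counts are not ranked. With a single one of their own or the tissue libraries left out, they numbered 1177 to 2062 and 1024 to 1179 for early and mid-term organoids with inhibitor, and 426 to 998 and 1224 to 1443 for early and mid-term organoids without it; the 426 were without early no-inhibitor replicate 2, the deeper library of its pair. The split by direction moved more. In the order given, 473, 431, 287 and 534 genes were higher and 1830, 1558, 1130 and 1717 lower with library totals, and the higher calls were 320, 278, 103 and 267 without tissue replicate 1 and 279, 247, 110 and 231 without replicate 2. Called higher in all 4 were 214 genes (2.16%), and called lower in all 4 were 806 (8.15%). These 1020 calls were reduced to 600 (72 higher, 528 lower) without tissue replicate 1, 567 (68 higher, 499 lower) without tissue replicate 2 and 380 (64 higher, 316 lower) without early no-inhibitor replicate 2. With library totals 145 were higher and 896 lower. Of the hair keratins, 14 of 14 fell in all 4, and of the inner root sheath genes 11 of 11. Of the glycolysis list 13 of 22 rose in all 4. The log2 change of ENO1 was 3.51 in early and 3.51 in mid-term organoids with inhibitor, and 3.00 in early and 2.99 in mid-term organoids without it. That of NRG1 was 3.62, 4.70, 2.54 and 4.20 in the same order.

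Fewer genes differed among the 4 organoid groups. The test of any difference among them called 282 genes (2.85%), of which 161 were also called between organoids and tissue, 5.81% of those 2772. It called 134 to 186 without early inhibitor replicate 3 or any 1 library of the other 3 groups, and 197 and 300 without early inhibitor replicates 1 and 2. RGS2, a regulator of G-protein signalling, had 175, 146 and 73.9 CPM in early and 385 and 397 CPM in mid-term organoids with inhibitor, 4.04 and 7.05 CPM in early and 6.83 and 9.69 CPM in mid-term organoids without it, and 15.9 and 22.8 CPM in tissue. Tissue therefore lay between the organoids with and without inhibitor, and the mean organoid difference from tissue was 1.02 ± 0.39 (log2, adjusted p = 0.0599). RGS2 was called at 1.10 with the replicate number as a block (adjusted p = 0.0408), at 1.05 in the fit of 17 libraries (adjusted p = 0.0321) and at 1.10 without early inhibitor replicate 3 (adjusted p = 0.0326). TIMP1, the metalloproteinase inhibitor, had 1604, 2409.6 and 3691 CPM in early and 3507 and 2042 CPM in mid-term organoids with inhibitor. Without it TIMP1 had 110.3 and 263 CPM in early and 106 and 211 CPM in mid-term organoids, against 137 and 106 CPM in tissue. The rise of TIMP1 over tissue thus lay in the inhibitor groups, and the 4 libraries without inhibitor overlapped tissue.

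CXCL14, a chemokine of resting epithelium, had 1394 and 3957 CPM in early organoids without inhibitor, 49.2 and 81.8 CPM in mid-term ones without it, and 53.5 to 117 CPM in the 5 libraries with it, against 2319 and 1439 CPM in tissue. Its mean log2 change of −3.45 ± 0.44 (adjusted p = 2.66e-06), a call lost with the 9 organoid libraries as 1 group (log2 −1.53), averages over the early organoids without inhibitor, where the difference from tissue was 0.51 (adjusted p = 0.669). ETS1, an ETS-family factor, had 67.6 to 136 CPM in the 5 libraries with inhibitor and 14.8 to 29.9 CPM in the 4 without, against 19.8 and 29.1 CPM in tissue. IRX4, an Iroquois homeobox factor, had 117 and 87.6 CPM in early organoids without inhibitor, above tissue at 35.7 and 46.2 CPM, and 1.48 and 0 CPM in mid-term organoids with it. SLC14A1, a urea transporter, had 117 and 244 CPM in mid-term organoids with inhibitor and 4.40 to 39.3 CPM in the other 7 libraries. PALMD, palmdelphin, had 61.9 and 77.95 CPM in early organoids without inhibitor, nearest to the 72.7 and 108 CPM of tissue, and 5.94 and 5.05 CPM in mid-term organoids with it. Values of these genes in the mean comparison with tissue thus average over groups that differ.

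**Figure D4:**
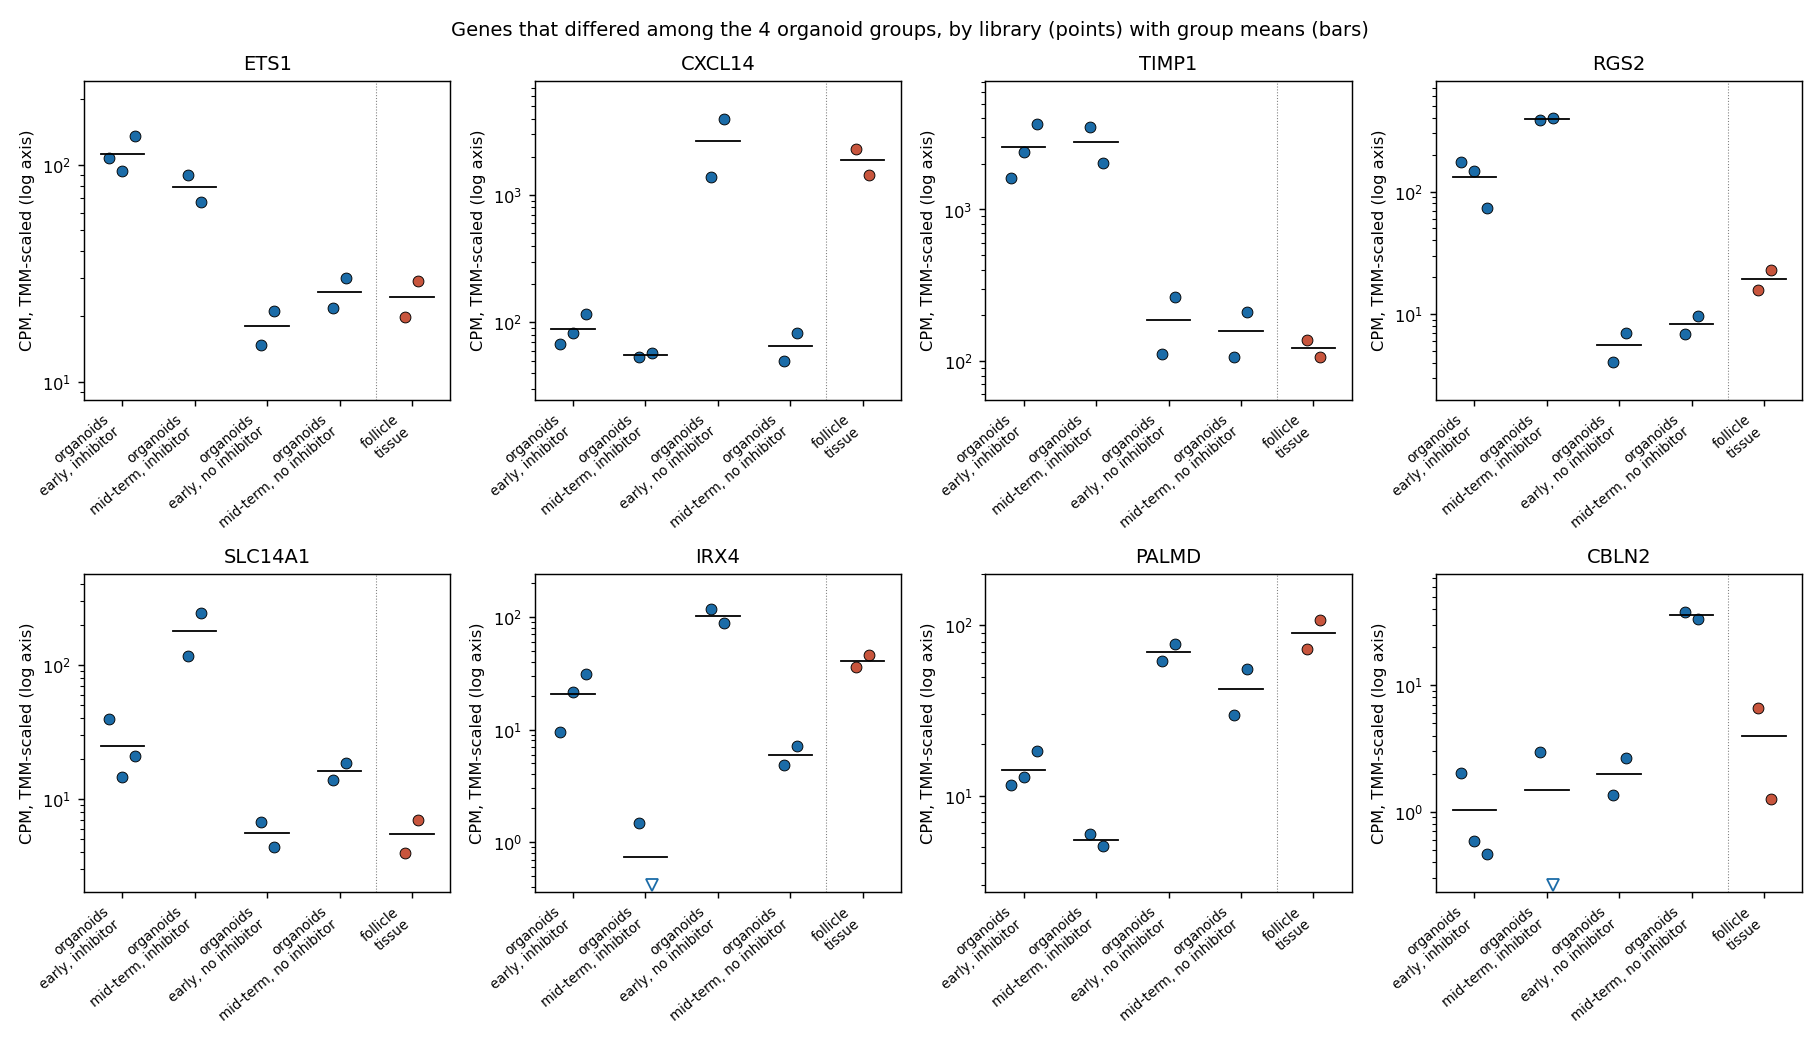
Level in each library (points; CPM after TMM scaling, log axis) with group means (bars) of the 8 genes with the smallest p for a difference among the 4 organoid groups (blue), beside follicle tissue (red); open triangles mark a library at 0 CPM. RGS2, TIMP1 and ETS1 were high in the groups with inhibitor, CXCL14 and IRX4 in early organoids without it, and CBLN2 in mid-term organoids without it.

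The change from tissue was also set against that of interfollicular cultures. Follicle organoids with inhibitor at both passages minus follicle tissue were compared with interfollicular organoids minus interfollicular tissue, with 1 library in each of the 2 interfollicular organoid groups, which are assumed to vary like the other groups, and 2 of interfollicular tissue. These libraries were shallower, with 472093 and 220006 counts in early and mid-term interfollicular organoids and 329060 and 84559 counts in interfollicular tissue. The difference of the 2 changes was called in 392 genes (3.96%), 45 (0.455%) more positive and 347 (3.51%) more negative in follicle cultures. With library totals, which put the median difference over all genes at 0.39 against 0.10, 114 were more positive and 305 more negative. KRT32, a hair cuticle keratin, had a difference of −7.26 ± 0.67 (adjusted p = 1.01e-05). The 5 follicle organoid libraries with inhibitor had 11.5 to 20.05 CPM of KRT32, against 1302 and 1811 CPM in follicle tissue. The early and mid-term interfollicular organoid libraries had 50.3 and 218 CPM, against a mean of 57.7 CPM in interfollicular tissue. KRT32 was thus counted at a higher level in the mid-term interfollicular organoid library than in any follicle organoid library, and leaving that library out reduced the calls to 91 (7 more positive, 84 more negative). Leaving out the early interfollicular library raised them to 675 (62 and 613). The part of these libraries in the result was not tested. UBASH3B, a phosphatase of receptor signalling, had a more positive change in follicle cultures, with a difference of 4.89 ± 0.75 (adjusted p = 0.000317). Its mean was 57.03 and 60.1 CPM in early and mid-term follicle organoids with inhibitor and 7.08 CPM in follicle tissue, but 13.6 and 18.2 CPM in interfollicular organoids and 57.5 CPM in interfollicular tissue. PTGS1 differed by 2.88 ± 0.49 (adjusted p = 0.000767) and KLF5 by 2.51 ± 0.42 (adjusted p = 0.000796), and KLF5 was not called without the mid-term interfollicular library, at 1.92 on the log2 scale.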

How the data were processed

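The authors deposited 1 table per library of expected counts per gene, mostly whole numbers with a few fractions, read with decimal commas and rounded. Per the labels' protocols, cells were sorted into Trizol and total RNA was made into CEL-seq2 libraries, sequenced paired end on a NextSeq500; per the submitters' processing notes, reads were aligned with BWA 0.6.2-r126 to CanFam3.1. Which annotation and counter were used, and whether molecular barcodes were collapsed, is not given in the sources used here. Of 6691 provisional gene names, 401 were renamed from RefSeq; 4 entries that name no gene (0.461% to 1.64% of counts in the 11 libraries) were left out, and 20 entries whose names had turned into dates stayed in the fit and are not named.

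All 23 libraries in 12 groups entered 1 fit, which shares its estimate of the spread: edgeR 4.0.16 in R 4.3.3, TMM scaling, filterByExpr (9893 genes), quasi-likelihood test, Benjamini-Hochberg threshold 0.05. Of these genes 156 are not listed in the 6 tables of differentiation-medium organoids and stand at 0 there. CPM values are TMM-scaled; summed levels of lists use library totals. Totals of 701066 to 4792758 counts set the precision. Floors and exact intervals of count ratios cover counting error only, while intervals of fold changes come from the fit and include the spread between libraries. Alternatives were size factors, library totals, other filters, DESeq2 1.42.0, limma-voom (limma 3.58.1), fewer libraries in the fit, the replicate number as a block, the organoids as 1 group, and each library left out; the counts of lists under them were added after seeing the data. The method was tested on simulated counts in which far fewer genes were changed than were called here. Those counts therefore do not test the scaling of these data.

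The libraries were picked by their labels, but this choice and that of the gene lists were made with earlier results of these data known. Genes named are the 15 largest rises and falls with at least 20 CPM and no overlap, up to 4 called genes per list and direction with the smallest p, the steadiest genes, the 8 and 10 genes with the smallest p among groups and for the interfollicular difference, a fixed set, and further list members named with their list after their values were seen. Some genes that these rules pick are not reported here. No promoter or other sequence was analysed here.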

Additional observations from a re-analysis of the deposited data

Results flagged for a closer look

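The change from tissue differed between follicle and interfollicular cultures, by a test of the difference itself, in 10 genes chosen as the 5 with the smallest p in each direction. The difference is the log2 change of follicle organoids with inhibitor minus that of interfollicular organoids. It was positive for KRT10 (4.77), KLF5 (2.51), PTGS1 (2.88), UBASH3B (4.89) and DAAM1 (3.73), and negative for KRT32 (−7.26), KRT33B (−6.73), KRTAP26-1 (−6.60), KRTAP16-1 (−6.21) and KRT85 (−6.80). The spinous keratin KRT10 had 872 and 947 CPM in early and mid-term follicle organoids against 668 CPM in follicle tissue, and 248 and 1177 CPM in interfollicular organoids against 10859 CPM in interfollicular tissue. DAAM1, a formin regulator of planar polarity, had 49.2 and 33.4 CPM in follicle organoids against 89.3 CPM in follicle tissue, and 15.5 and 6.07 CPM in interfollicular organoids against 278 CPM in interfollicular tissue. The hair protein gene KRTAP16-1 had 31.3 and 26.1 CPM in follicle organoids against 2223 CPM in follicle tissue, and 44.5 and 322 CPM in interfollicular organoids against 116 CPM in interfollicular tissue. In the mid-term interfollicular organoid library all 5 hair genes were above the interfollicular tissue mean and above every follicle organoid library. KRT33B had 146 CPM there against a tissue mean of 62.6 CPM, KRT85 had 152 against 44.3 CPM, and KRTAP26-1 had 237 against 70.4 CPM. Whether these levels bear on the label of that library, or on RNA carried over from other libraries, was not tested. Without that library the differences were −6.27 for KRT32, −5.80 for KRT33B, −5.10 for KRTAP26-1, −4.84 for KRTAP16-1 and −5.38 for KRT85, all still called. Each interfollicular organoid group is 1 library of low depth.

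The 4 organoid groups differed among themselves in 8 genes chosen by the smallest p, with adjusted p-values of 2.92e-07 for RGS2, 8.18e-06 for SLC14A1, 2.08e-05 for CXCL14, 5.23e-05 for TIMP1, 0.000134 for IRX4, 0.000245 for PALMD, 0.000283 for ETS1 and 0.000425 for CBLN2 (edgeR quasi-likelihood test). CBLN2, a secreted synaptic organiser, had 38.1 and 33.3 CPM in mid-term organoids without inhibitor, 0 to 2.97 CPM in the other 7 organoid libraries, and 6.61 and 1.27 CPM in tissue.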

How the results depend on the processing

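With 1 library left out, called genes numbered 1387 to 2959 for all organoids against tissue, 1177 to 2062 and 1024 to 1179 for early and mid-term organoids with inhibitor, 426 to 998 and 1224 to 1443 for early and mid-term organoids without it, 380 to 1114 for the same call in all 4 groups, 134 to 300 among organoid groups and 91 to 675 between follicle and interfollicular change. Where a group was left with 1 library, that library is assumed to vary like the other groups. A minimum count of 30 gave 1803 genes for all organoids, 1410 for early organoids with inhibitor, 951 for early and 1514 for mid-term organoids without it, and 146 among groups, on fewer genes tested. The fit of only the groups compared gave 3019 for mid-term organoids with inhibitor, 3731 for mid-term organoids without it and 184 among groups. The 17 tissue and undifferentiated organoid libraries gave 2164 for early organoids without inhibitor and 611 among groups, no filter gave 893 among groups, and limma-voom gave 679 for the follicle against interfollicular change; the causes were not tested. No direction turned under these alternatives among the called genes named in the text. Named genes that were not called were not checked for this. Of 175 called genes named in the text, the calls lost numbered 14 without tissue replicate 1, 24 without replicate 2, 10 with the 9 organoid libraries as 1 group, and 0 to 3 under each other alternative. Of them 24 were not tested with the minimum count of 30, and 0 to 3 under each other alternative. With the replicate number as a block, 2435 genes were called for all organoids and 156 among groups. The numbers are not treated as pairs, since deviations of same-numbered libraries correlated at −0.32 to 0.18. The tissue depth of 701066 and 1502935 counts limits genes that are low in tissue.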

Other observations

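Several genes with large changes lie outside the lists. PTPRZ1, a receptor tyrosine phosphatase known from glia, had 5.38 to 41.6 CPM in organoids (median 23.3), against 0 and 1.90 CPM in tissue, a log2 change of 4.13 ± 0.80 (adjusted p = 0.000436). With 3 counts in tissue, its organoid level was 17.4-fold the tissue level by summed counts (exact 95% interval 5.93 to 84.8). FAM19A5, a secreted chemokine-like protein, had 6.91 to 40.03 CPM in organoids (median 17.5), against 1.32 and 1.27 CPM in tissue, a log2 change of 3.74 ± 0.69 (adjusted p = 0.000269), also with 3 counts in tissue and a 14.2-fold higher organoid level by summed counts. FNDC1, a fibronectin-domain protein, had 0 to 1.35 CPM in organoids (median 0), against 36.998 and 23.4 CPM in tissue, a log2 change of −7.31 ± 0.65 (adjusted p = 1.95e-07). SERPINA9, a serpin, had 0 to 2.03 CPM in organoids (median 1.26), against 95.1 and 76.6 CPM in tissue, a log2 change of −7.10 ± 0.57 (adjusted p = 1.74e-08). All 9 organoid libraries lay on one side of both tissue libraries in each of these genes. The rule for the largest rises and falls admitted only such genes, so this separation is not a separate result.

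The hair keratin KRT33A was counted in every organoid library. It had 10.2, 8.14 and 12.4 CPM in early and 10.4 and 10.1 CPM in mid-term organoids with inhibitor, and 10.8 and 12.3 CPM in early and 10.2 and 6.74 CPM in mid-term organoids without it. The follicle tissue libraries had 1442 and 1422 CPM. The source of these reads was not tested.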
